A study of Homo sapiens with 2 samples.

Results

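N6-methyladenosine (m6A) was examined in polyadenylated mRNA of histone variant genes from HEK293T, a widely used human cell line of embryonic kidney origin. The set was fixed by gene symbol as 9 genes, namely H2AX, H2AZ1, H2AZ2, MACROH2A1, MACROH2A2, H3-3A, H3-3B, H1-10 and H1-2. Sites were taken where the deposited gene name was exactly one of these symbols. No measured value entered this rule, though the set was chosen with earlier results of these data known. All 9 genes had at least 1 listed site. The genes held 42 of the 93541 sites listed in either replicate and 36 of the 60462 sites listed in both. Sites listed in both, called shared sites here, fell in 8 of the 9 genes, out of 9521 named genes with a shared site.

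The series holds 2 replicates of 1 group, oligo(dT)-purified mRNA of wild-type HEK293T cells put through GLORI and labelled day 0. In GLORI, glyoxal and nitrite turn unmethylated adenosine into inosine, which is sequenced as G, while m6A is still read as A. The level of a site is the percentage of A among its A and G reads. With no second condition, the only replicated comparison is between the replicates, and nothing in the labels says that they came from separate cultures, so p-values measure only the spread between these libraries.

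Histone variants replace the canonical histones of the nucleosome at chosen places or times. Most canonical histone mRNAs are made during DNA replication and end in a stem-loop without a poly(A) tail, whereas mRNAs of replacement variants are made through the cell cycle and are polyadenylated. H1-2 belongs to the replication-dependent cluster and H2AX mRNA is known in both forms, so an oligo(dT) library captures the tailed part of their mRNA. m6A is laid down mainly within the motif named DRACH (A, G or U, then A or G, then the methylated A, then C, then A, C or U). A related mark, m6Am, sits on an adenosine that is the first transcribed base of a capped mRNA and also carries the methyl group at N6.

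The feature the histone variant genes shared was a site at or just after an annotated transcription start. Of the 8 genes with shared sites, 7 had one within 5 bases downstream of a RefSeq start, and in 5 of the 8 (62.5%) it was the annotated first base itself. A site within 5 bases downstream of a start was listed in 4.74% of all 9521 genes with shared sites, and in 10.3% of the 3755 genes covered at least as deeply as the least covered histone variant gene. At the annotated first base, the shares were 3.63% and 7.78%. This position was looked at after the values were seen, so the shares are given as a description with no test. The coverage limit is only a floor, at a deposited gene coverage of 38.9, while H1-10 had 608 in replicate 1 and 697 in replicate 2. Depth was therefore not matched, and its part in these shares was not tested. The sequences below carry these sites, each with 12 bases on both sides on the transcribed strand (RefSeq, GRCh38.p14), and the capital marks the base listed as methylated. At a first base, the letters before the capital lie upstream of the transcript.
H1-10 first base: cgccctcccgccAgagcgcagcgcg
H2AX first base: cgcgcgcgcgacAgcagttacactg
H1-2 first base: aggcgctgcttcAtcggcgctttgc
H2AZ2 first base: cgcgaggcgggcAcggggtattgtc
MACROH2A2 first base: tatccgcggcccAgagaactgccgc
H3-3B, 1 base after the first: gcgggggcttggAgcgcagagcggt
H3-3A, 5 bases after the first: cagccatctttcAattgtgttcgca

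In all 5 genes with a site at the first base, the base just upstream was C. Over all annotated starts that begin with A, 66.7% had C there, and over the 349 shared sites at an annotated first base the share was 73.9%. The windows hold 9 listed sites of the histone variant genes, counting a further site of H2AZ2 and one of H2AX listed in replicate 1 alone, and 0 of the 9 lay in a DRACH match on the strand of the gene. In the whole annotation, 1.43% of the 349 shared sites at a first base and 53.6% of the 183 shared sites at 6 to 47 bases downstream lay in DRACH. DRACH needs A or G just before the methylated A, so the C at the 5 first bases already excludes a match. At a first base, the motif letters before the A also lie outside the transcript. The share in DRACH there is therefore not a result separate from the share with C upstream. Every one of the 1048 shared sites inside such a window fell on an A of the stated strand. Whether the A reads at the first bases come from m6Am was not tested.

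Levels at these starts differed widely between the genes. At position 129316286 of chromosome 3 (minus strand), the first base of H1-10, the level was 72.4% in replicate 1 (55 of 76 reads) and 72.9% in replicate 2 (62 of 85 reads). H2AX had 57.9% (55 of 95 reads) and 72.8% (75 of 103 reads) at position 119095465 of chromosome 11 (minus strand). H1-2 had 48.3% (28 of 58 reads) and 59.2% (29 of 49 reads) at position 26056470 of chromosome 6 (minus strand). These 3 genes lay above the upper quartile of all shared sites at a first base, which had a median of 29.2% and quartiles of 19.6% and 42.8%.

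The H3.3 sites lie after the first base, and the 117 shared sites at 1 to 5 bases after a start had a median level of 21.2%, with 9.40% in DRACH. Both H3.3 sites lay above that median. H3-3A had 42.5% (51 of 120 reads) and 41.5% (56 of 135 reads) at position 226062721 of chromosome 1 (plus strand), and H3-3B had 43.1% (50 of 116 reads) and 40.3% (60 of 149 reads) at position 75779778 of chromosome 17 (minus strand). Their 95% Wilson intervals on summed reads, 36.1 to 48.1% and 35.7 to 47.5%, overlapped almost wholly. H2AZ2 was thinly covered at its first base, position 44848087 of chromosome 7 (minus strand), with 33.3% in both replicates from 21 and 27 reads. The lowest was MACROH2A2, at position 70052846 of chromosome 10 (plus strand), with 17.5% (7 of 40 reads) and 13.7% (7 of 51 reads). Wilson intervals cover counting error only, as reads may share a source molecule.

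**Figure D1:**
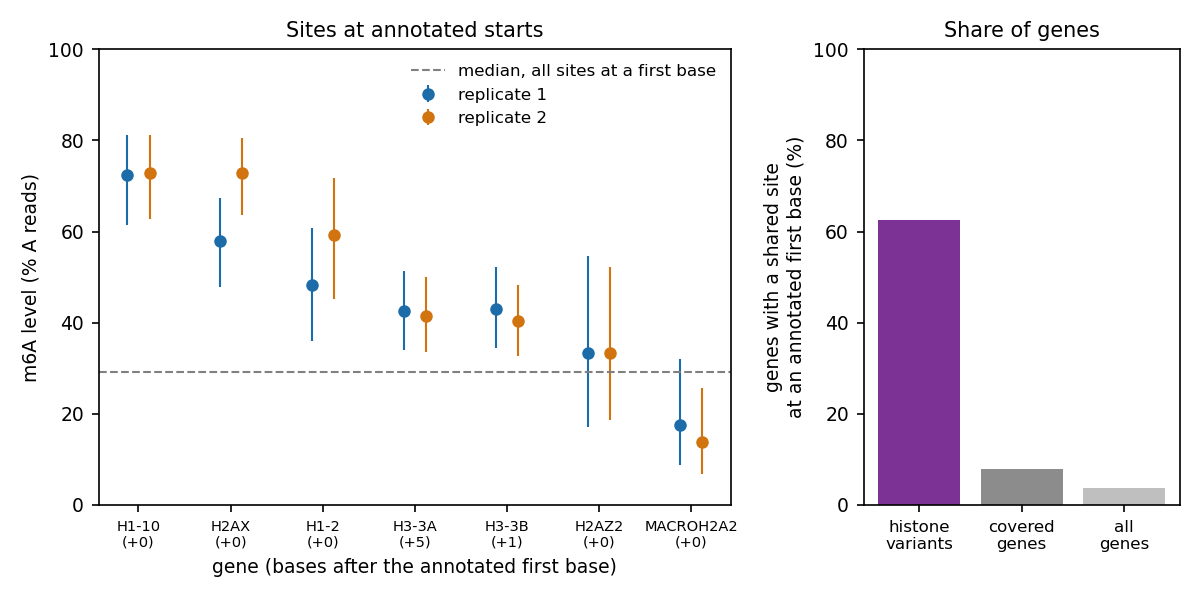
Left, m6A level (percent A reads) in replicate 1 and replicate 2 at the 7 sites within 5 bases of an annotated start, with 95% Wilson intervals; the dashed line is the median of all 349 shared sites at a first base, 29.2%. Right, percentage of genes with a shared site at an annotated first base, 62.5% in the histone variant genes, 7.78% in the 3755 covered genes and 3.63% in all genes.

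Of the 13 annotated starts of the 9 genes, 7 begin with A, all 7 have C just upstream, and 5 of the 7 carried a listed site. The remaining pair, the outermost starts of H3-3A (position 226061831) and MACROH2A1 (position 135399887), had no listed site, which gives no bound on their level. Over the whole annotation, 2.25% of the 15520 starts beginning with A had a shared site, a share that also counts starts of genes with no listed site. H2AZ1 and H3-3B begin with G in the annotation. In H2AZ2, the first base meant here is that of 1 annotated start, 39 bases inside the outermost end of the gene. The start meant for H3-3A is the innermost annotated one (position 226062716), and its site lies 890 bases from the outermost start.

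H2AX encodes the H2A variant that is phosphorylated around DNA breaks, and its mRNA carried the most sites of the set. The gene spans 1592 bases of chromosome 11 (positions 119093874 to 119095465, minus strand) and has no introns, so distances along it are distances along the mRNA. It had 16 shared sites, or 10.1 per 1000 bases. At least 16 were found in 8.11% of all genes with shared sites and in 9.96% of the 3755 covered genes. The mean level of H2AX was 54.8% ± 0.47 (counting SE), with 54.3% in replicate 1 and 55.2% in replicate 2. Along its whole length the annotation also places DPAGT1, a gene of the same strand, so reads of a longer DPAGT1 transcript could not be told apart here; the authors gave every one of these sites to H2AX.

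The sites of H2AX fell into 2 ranges of level with nothing between them. There were 9 sites from 63.7% to 96.2% and 7 from 11.9% to 28.8%. The highest level was at position 119094391, with 96.4% in replicate 1 (269 of 279 reads) and 96.0% in replicate 2 (313 of 326 reads). Close to it were position 119094204 with 96.0% and 94.99%, position 119093993 with 94.7% and 96.1%, and position 119094861 with 92.7% and 95.4%. These 4 sites were almost always methylated in the listed reads and had 262 to 773 reads in each library.

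High and low sites were interspersed along the mRNA. From 800 to 938 bases downstream of the start lay 3 low sites in a row, at positions 119094665 (14.6% and 13.5%), 119094589 (22.1% and 21.7%) and 119094527 (17.5% and 18.1%). After the high site at 1074 bases came a low one at 1160 bases, position 119094305, which was the lowest shared site of the gene and, by a small margin, the most covered over both libraries together, with 11.7% (87 of 743 reads) and 12.1% (101 of 834 reads). Then 3 high sites followed within 69 bases, at 1261, 1277 and 1330 bases. The last 500 bases of the gene held 8 of the 16 sites, 6 of them in the high range. Near the 3' end, position 119093970 had 64.0% of 719 reads and 63.4% of 855 reads.

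The deposited conversion of H2AX was 94.4% in replicate 1 and 94.1% in replicate 2, which leaves 5.64% and 5.92% of A unconverted by the authors' figure. Only 2.61% and 1.98% of listed genes had a lower conversion. In the other 8 genes the unconverted share was 1.58 to 4.07%. The lowest shared site of H2AX had 11.7% and 12.1%. Whether methylated bases enter the conversion figure is not stated in the labels or headers, and the part of conversion in the low levels was not tested.

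**Figure D2:**
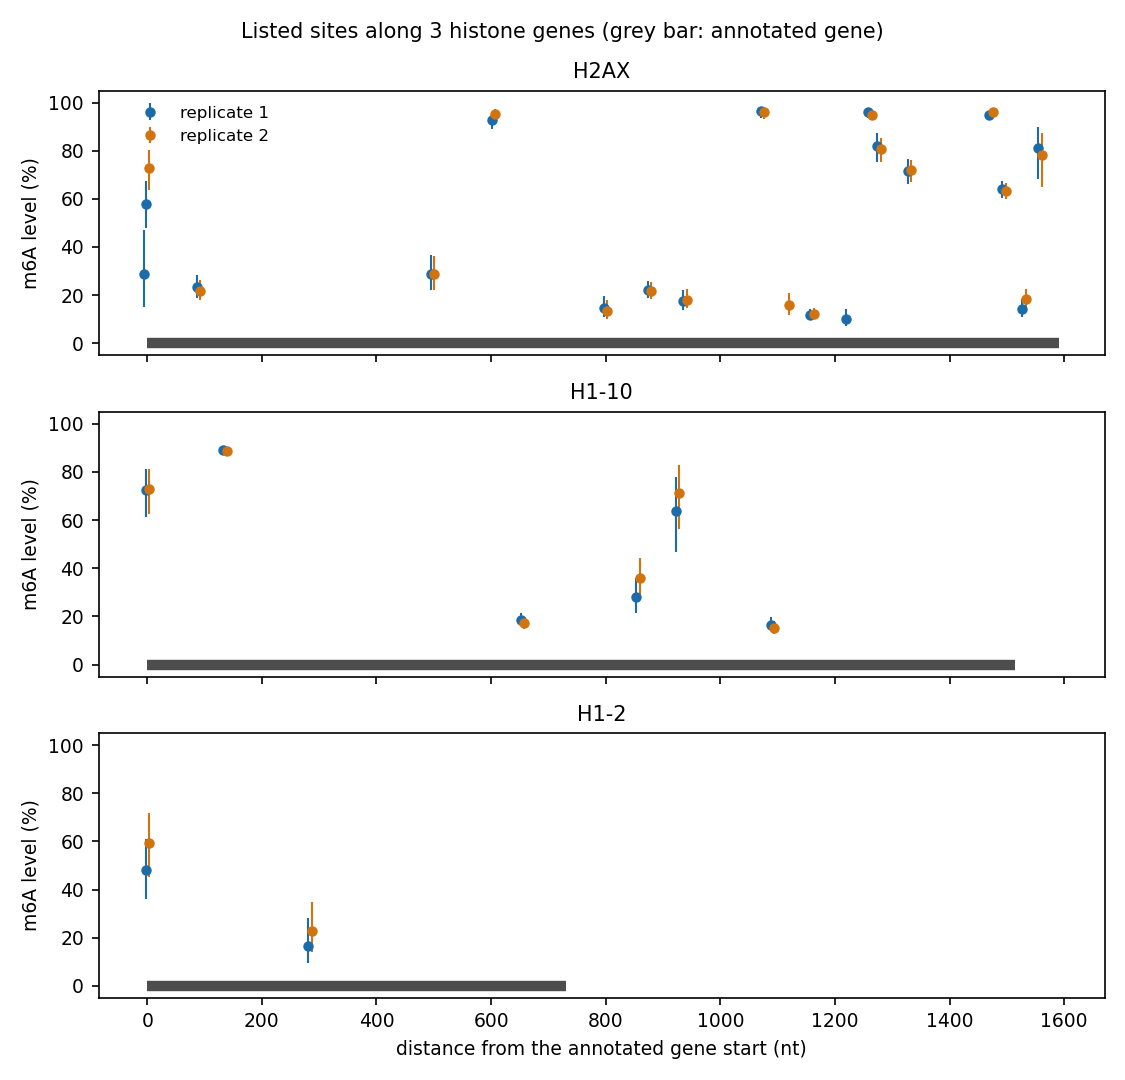
m6A level (%) of each listed site against distance from the annotated gene start in nucleotides, for H2AX, H1-10 and H1-2, with 95% Wilson intervals for replicate 1 and replicate 2; the grey bar is the annotated gene. H2AX shows 9 shared sites at 63.7% or more and 7 at 28.8% or less along 1592 nucleotides.

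H2AZ1 and H2AZ2 encode nearly identical forms of H2A.Z, the variant found around promoters. Their listed sites are given by genome position, as exon positions were not analysed, so their places in the mRNAs cannot be compared. Deposited gene coverage was 217 in replicate 1 and 246 in replicate 2 for H2AZ1, and 40.7 and 45.9 for H2AZ2. H2AZ1 (chromosome 4, positions 99948088 to 99950275, minus strand) had 2 shared sites, 45 bases apart and 299 and 344 bases from the annotated 3' end. Position 99948387 had 59.7% (280 of 469 reads) in replicate 1 and 56.4% (349 of 619 reads) in replicate 2, and position 99948432 had 28.4% (155 of 545 reads) and 31.3% (206 of 659 reads). The order of these neighbours was the same in both libraries, and their Wilson intervals on summed reads, 54.9 to 60.7% and 27.5 to 32.6%, did not overlap.

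H2AZ2 (chromosome 7, positions 44826889 to 44848126, minus strand) had 6 shared sites with a mean of 31.4% ± 1.8 (counting SE). The highest, position 44830026, had 87.0% (20 of 23 reads) and 85.7% (18 of 21 reads), with a Wilson interval of 73.3 to 93.6%. The most covered, position 44834461, was also the lowest, with 15.4% (50 of 324 reads) and 12.3% (46 of 375 reads). Next to it, position 44834449 had 22.0% (48 of 218 reads) and 18.6% (46 of 247 reads). The mean of H2AZ2 rests on its thinly covered sites: with a minimum of 30 reads in each library it was 17.2%.

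The macroH2A genes encode H2A variants with a large extra domain, known from silent chromatin, and they had few sites. MACROH2A2 (chromosome 10, positions 70052846 to 70112282, plus strand) had only the site at its first base. MACROH2A1 (chromosome 5, positions 135334381 to 135399887, minus strand) had 1 site in replicate 1, at position 135334914, with 10.0% (6 of 60 reads), and no listed site in replicate 2. That level equals the lowest one the lists hold. The site lies 533 bases from the annotated 3' end, in a stretch where the annotation also places PITX1-AS1, whose annotated start is on the opposite strand.

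H3-3A and H3-3B encode the same H3.3 protein from different mRNAs. H3-3A (chromosome 1, positions 226061831 to 226072019, plus strand) had its 1 shared site near its innermost annotated start, as given above, 890 bases into the gene. H3-3B (chromosome 17, positions 75776434 to 75779779, minus strand) had a second site at position 75778447, 1332 bases into the gene, with 23.7% (63 of 266 reads) and 26.6% (94 of 354 reads). No site of either gene reached 50%.

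The linker histone genes differed in number of sites. H1-10, also without introns (chromosome 3, positions 129314771 to 129316286, minus strand), had 6 shared sites over 1516 bases with a mean of 49.1% ± 1.2 (counting SE). Its position 129316150, 136 bases from the start, was the most deeply covered site of the set, with 89.0% (1940 of 2180 reads) in replicate 1 and 88.8% (2164 of 2436 reads) in replicate 2. Positions 129315631 and 129315195 were low, with 18.6% and 17.2% at the first and 16.5% and 15.1% at the other. Between them lay position 129315430 with 28.1% and 36.1%, and position 129315361 with 63.6% (21 of 33 reads) and 71.4% (30 of 42 reads). Coverage within this 1 gene ran from 33 to 2180 reads in replicate 1. The first base of H1-10 also lies inside the annotated H1-10-AS1, but the site is listed on the strand of H1-10.

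H1-2, the linker histone gene of the replication-dependent cluster (chromosome 6, positions 26055740 to 26056470, minus strand), had 2 shared sites over 731 bases. Besides its first base, position 26056186 had 16.7% (10 of 60 reads) and 23.0% (14 of 61 reads). The mean of the gene, 36.8% ± 3.0 (counting SE), was 19.8% without the site at the first base.

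Ordered by mean level, the genes ran H2AX (54.8%), H1-10 (49.1%), H2AZ1 (43.9%), H3-3A (42.0%), H1-2 (36.8%), H3-3B (33.4%), H2AZ2 (31.4%) and MACROH2A2 (15.6%). Of the 7 pairs of neighbours, 3 were separated by both the 95% counting interval of the difference and the replicates. H2AX exceeded H1-10 by 5.62 percentage points (3.10 to 8.14), H1-10 exceeded H2AZ1 by 5.20 (2.14 to 8.26), and H2AZ2 exceeded MACROH2A2 by 15.8 (7.52 to 24.1). The intervals of the other 4 differences included 0, but most did not under every setting. H3-3B minus H2AZ2 was 16.2 points (11.6 to 20.7) at 30 reads and -5.93 (-10.6 to -1.28) without sites near a start. H1-2 minus H3-3B was -13.6 (-21.5 to -5.72) at 50 reads and 20.3 (10.3 to 30.4) over sites of at least 20%. H3-3A minus H1-2 was 22.2 (12.9 to 31.5) and -11.7 (-22.9 to -0.54) at these settings. For H2AZ1 and H3-3A, the interval always included 0. None of the 3 separations held under every setting. H2AZ2 exceeded MACROH2A2 by 1.62 points (-6.50 to 9.73) over sites with 30 reads or more in each library. Without the sites near a start, H1-10 exceeded H2AZ1 by 0.50 points (-2.65 to 3.64). H2AX exceeded H1-10 by 2.73 points (-0.91 to 6.36) over sites of at least 20%. Over every site listed in a replicate, shared or not, it did so by 2.65 points in replicate 2 and 2.38 in replicate 1. Both of these intervals included 0. Over shared sites alone, H2AX had 54.3% in replicate 1 and 55.2% in replicate 2, and H1-10 had 48.0% and 50.3%. With reads summed over the sites, H1-10 (59.4%) stood above H2AX (52.7%), since its deepest site is a high one.

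**Figure D3:**
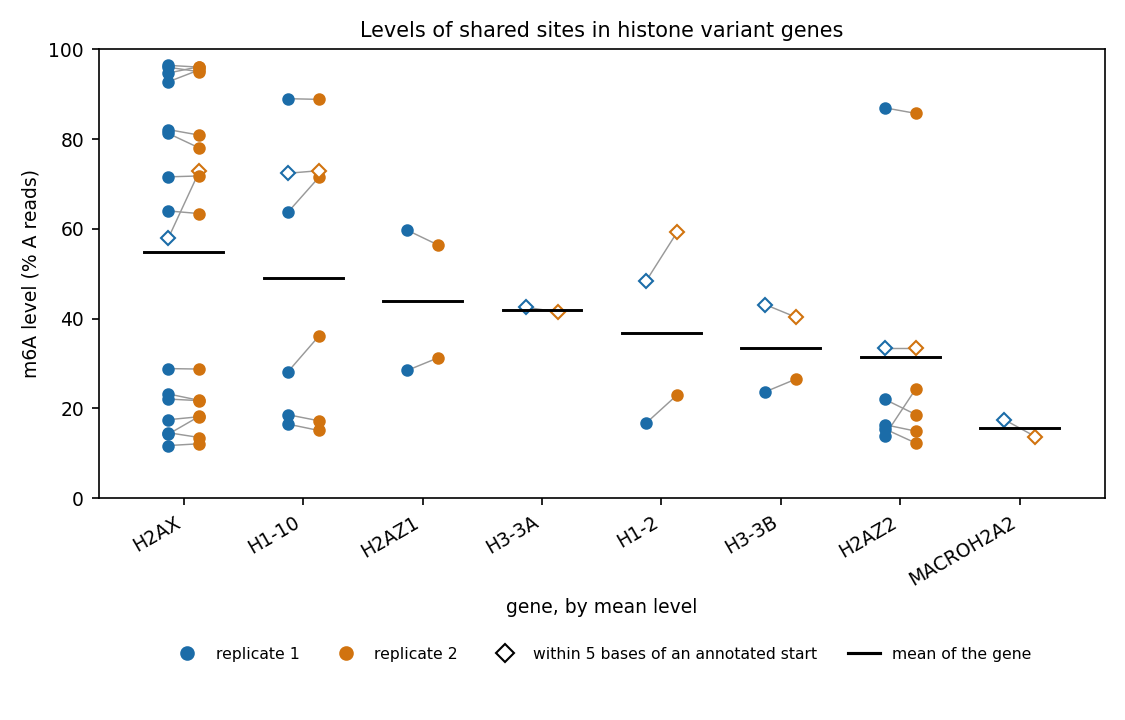
m6A level (percent A reads) of each shared site in replicate 1 and replicate 2, by gene in order of mean level; lines join the replicates, open diamonds are sites within 5 bases of an annotated start and black bars are gene means. H2AX has no shared site with a mean level between 28.8% and 63.7%, and the single sites of H3-3A and MACROH2A2 are both start sites.

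The replicates were then compared at the shared sites. Fisher's exact test (two-sided, Benjamini-Hochberg over all 60462 shared sites) called 0 of the 36 sites of the histone variant genes, and 0% of all shared sites. At an unadjusted p under 0.05 it had 1 of the 36, against 3.06% of all shared sites, and a chi-square test likewise called 0 with 1 under the unadjusted limit. That site was the first base of H2AX, 57.9% in replicate 1 and 72.8% in replicate 2 (Fisher's exact test, p = 0.0358, adjusted p = 1). The median absolute difference between replicates was 1.43 points in the histone variant genes, whose shared sites had a median of 272 reads, and 4.87 points over all named genes, with a median of 47 reads. The mean chi-square of the difference, which is near 1 where sampling of reads alone separates the libraries, was 0.686 in the set and 0.933 over all named genes. Only sites above the listing limits in both libraries enter these values, so they do not show whether the libraries are independent. As the labels name no separate cultures, the libraries were counted as 1 sample, and means are given without SD.

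**Figure D4:**
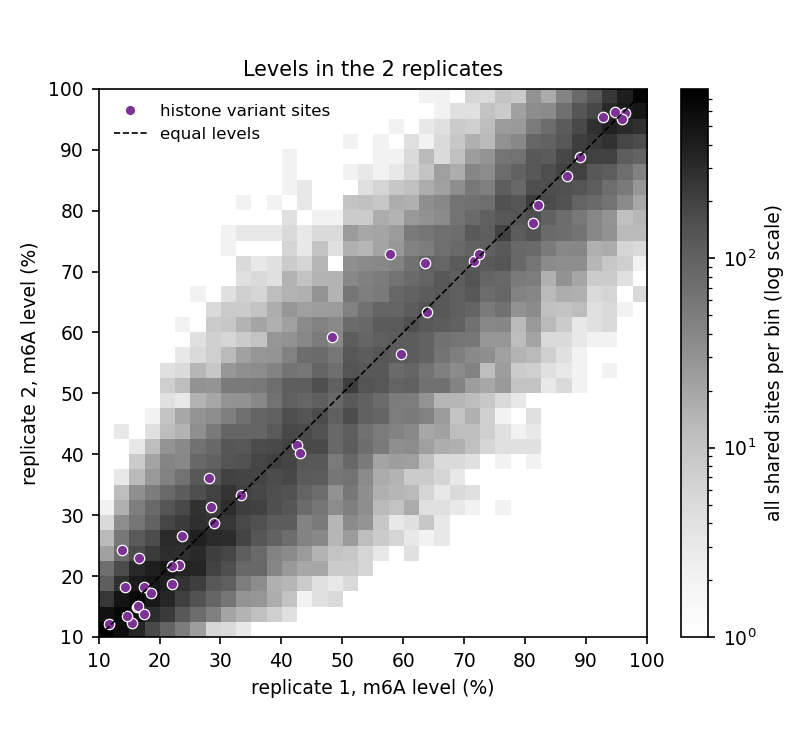
m6A level (%) in replicate 2 against replicate 1 for the 36 shared sites of the histone variant genes (points) over all shared sites (grey, number per bin of 2.5 by 2.5 percentage points, log scale). The points lie along the line of equal levels; the one farthest from it is the first base of H2AX, with 57.9% and 72.8%.

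Sites listed in 1 replicate alone numbered 6 of the 42, so 85.7% were shared, against 64.6% of all sites listed in either. Shared sites of the set were also deeper, with a median of 272 reads against 47 over all named genes. The part of depth in this share was not tested. All 6 had either a level of at most 15.8% or at most 28 reads. In H2AX, position 119094243 was listed in replicate 1 with 10.1% (28 of 278 reads), position 119095467, 2 bases before the annotated start, in replicate 1 with 28.6% (8 of 28 reads), and position 119094348 in replicate 2 with 15.8% (41 of 259 reads). In H2AZ2, position 44834519 was listed in replicate 1 with 25% (5 of 20 reads) and position 44827366 in replicate 2 with 12% (6 of 50 reads). The sixth was the site of MACROH2A1.

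Number and level of sites were set beside those of all genes, with no test. The median was 2 shared sites per gene, against 4 over all genes and 4 over the 3755 covered genes. The median gene level was 39.4%, against 46.6% over all genes and 38.2% over the covered genes. Sites under 20% made up 30.6% of the shared sites of the set (11 of 36) and 15.2% of those in all named genes, beside the difference in depth given above; its part in these shares was not tested. Sites at 80% or more made up 19.4% (7 of 36) and 20.1%.

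The other histone genes listed in the files, 16 genes apart from 5 pseudogenes, gave 13 genes with shared sites and a median gene level of 49.8%. H2BC21 had 4 sites at 54.2% ± 3.2 (counting SE), and H2BS1, H3C15 and H4C14 had 3 each at 35.6%, 30.8% and 36.5%. A site at an annotated first base was listed in 1 of these 13 genes, H4C14. Near-identical copies exist for many of these genes, so how reads were divided among them is uncertain. The 5 pseudogenes gave 3 with shared sites, at a median of 53.3%.

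Among the chaperones and exchange factors that place histones and their variants, 24 of 26 genes had shared sites, with a median of 4.5 sites and a median gene level of 46.9%. Most sites were in SRCAP, the ATPase of a complex that exchanges H2A.Z into nucleosomes, with 56 at 47.2% ± 0.35 (counting SE). UBN1, a subunit of the HIRA complex for H3.3, had 24 at 49.6% ± 0.87. CHAF1A, of the replication-coupled assembly factor CAF-1, and EP400, a remodelling ATPase, had 20 each at 52.4% and 57.0%. A site at an annotated first base was listed in 1 of the 24 genes, DNAJC9.

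All 7 genes for the processing of replication-dependent histone mRNA had shared sites. CASP8AP2 had 9 at 72.4% ± 1.9 (counting SE), and LSM10 and LSM11, parts of the U7 particle, had 7 each at 54.7% and 38.5%. NPAT, the activator of histone gene transcription, had 5 at 47.5%. SLBP, which binds the histone stem-loop, had 3 at 49.7%, one of them at an annotated first base. ERI1 and ZNF473 had 2 each at 81.5% and 58.8%. Fisher's exact test called 0 sites between the replicates in any of these lists. At an unadjusted p under 0.05, the same test had 2 of 36 shared sites (5.56%) in the other histone genes. The chaperones had 8 of 225 (3.56%) and the processing genes 2 of 35 (5.71%), against 3.08% over all named genes.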

How the data were processed

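GLORI libraries of HEK293T mRNA were analysed from 1 deposited site list per replicate. A line holds, per the file headers, a site's count of A or G reads, its count of A reads and their ratio, a fraction deposited by the authors that equalled A over A plus G within 5e-06. The deposited lists also hold a conversion fraction and a gene coverage (a signal of unstated computation, used only for depth) and a p-value per site. Per the submitters' processing notes, GRCh38 was the build and STAR, Bowtie, SAMtools and Trim Galore 0.6.6 were used. In the values, listed sites have at least 15 reads, 5 A reads and a level of 10%; weaker sites are not listed, so no site gives no bound. Replicate 1 held 5221660 A or G reads at 72449 listed sites, replicate 2 held 6306522 at 81554; these are not library depths.

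Levels were computed from the counts as deposited. Gene means are over shared sites, each the mean of both replicates, with counting SE; sites have 95% Wilson intervals. Fisher's exact test (SciPy 1.17.1) ran over all shared sites and was tested on simulated data. Starts and sequences came from RefSeq GRCh38.p14 tables, matched by symbol for all 9 genes. The members and lists were chosen with earlier results of these data known. The named-gene rule took all members, the genes with the most shared sites in the histone and chaperone lists (ties included) and all processing genes. Of these, 1 gene is not reported here. Sites in members were named where highest, lowest or deepest in their gene; others were chosen after their values were seen. Transcript and codon positions, homologous sites and a DRACH filter were not analysed here, for want of an annotation of exons and a genome.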

Additional observations from a re-analysis of the deposited data

How the results depend on the processing

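The count of shared sites in the histone variant genes, 36, stayed within 1.5 times under every setting run, from 25 (level of at least 20%) to 40 (replicate 1 alone), and 0 sites differed between replicates under a chi-square test or with at least 30 or 50 reads. The median gene level, 39.4%, was 46.7% over sites of at least 20% and ran from 33.4 to 41.3% without one replicate. Of neighbouring genes in the order, 3 pairs were separate, and 1 to 2 without one replicate. Settings without 1 replicate took in every site listed in the other, shared or not, and MACROH2A1 entered in replicate 1 alone. Over these sites H2AX had 50.4% in replicate 1 and 52.9% in replicate 2, against 54.3% and 55.2% over shared sites. The part of these added sites in the shifts was not tested. Genes with a site at an annotated first base numbered 5 in either replicate alone and 4 at 30 reads, at a level of 20% or with outermost starts alone, but 2 with at least 50 reads in both, since 3 of the 5 sites are shallower than that; these settings were chosen after seeing the data. Among single genes, H2AZ2 (31.4%) had 16.6% at 50 reads and 19.1% with reads summed, and H3-3B (33.4%) had 25.1% without its start site. The DRACH and transcript settings were not run. No paired analysis was possible because the labels give 1 group. Depth limits what is listed: at 15 reads, 5 A reads are needed.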
